A study of Rattus norvegicus with 63 samples.

Results

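The medial prefrontal cortex of rats without cocaine was compared with 5 other brain regions of rats from the same group. Of the 63 arrays of the series, 21 came from rats with 0 h of daily access, called no access here: 3 arrays of the medial prefrontal cortex, 4 each of the nucleus accumbens, amygdala and lateral hypothalamus, and 3 each of the septum and ventral tegmental area. The members are these 3 arrays, chosen by their titles. The 42 other arrays came from the same 6 regions of rats that could press for intravenous cocaine, at 0.25 mg per injection, for 1 h (short access) or 6 h (long access) a day. The labels give 8 drug-naive rats for the no access group and 8 for each of the others, and no strain, sex or age. Nothing in them says whether an array holds RNA of 1 rat or of several, so p measures the spread between arrays. Each array measured total RNA of a dissected region on a rat neurobiology oligonucleotide array, and the values are signal intensities on a log2 scale, where a difference of 1 is a 2-fold change.

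The medial prefrontal cortex is the part of the frontal cortex along the midline. Its output comes from pyramidal neurons that use glutamate, shaped by local interneurons that use GABA, and it sends axons to the accumbens, the amygdala, the hypothalamus and the midbrain. It receives dopamine from neurons of the ventral tegmental area and noradrenaline from the brainstem, and it is known for its part in working memory, action control and the seeking of drugs. As cortical grey matter it holds less myelin than regions crossed by large fibre tracts.

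Array 3 of the medial prefrontal cortex stood apart. The actin probes at the 3′ end of the transcript were brighter than those at the 5′ end by 1.93 (log2) on it, against 0.03 on array 1 and 0.27 on array 2, and between -0.13 and 0.62 on the 18 no access arrays of other regions. Its correlation with arrays 1 and 2 was 0.907 and 0.894, and theirs with each other 0.960. Among the medial prefrontal cortex arrays of cocaine access the ratio was 1.58 on array 3 of short access, and 1.35 on array 3 and 0.78 on array 2 of long access, while the 54 arrays of other regions in the series reached at most 0.62. The median SD of a probe set was 0.38 in the medial prefrontal cortex and 0.15 to 0.29 in the other regions, so that the spread pooled over 6 regions is smaller than this region's own. Of the probe sets on its arrays, 23.6% lay at the floor, the lowest signal kept (32, or 5.00 on the log2 scale), against 20.3% elsewhere, and all 3 arrays lay above the 18 others (22.96% to 24.78% against 17.34% to 22.41%; exact permutation test, two-sided, adjusted p over 6 measures = 0.0045). The median signal was 133.2 on the medial prefrontal cortex arrays and 147.9 on the others (exact permutation test, adjusted p = 0.0361). The comparison was repeated without array 3 and with the actin ratio as a covariate, which gave 87 higher and 82 lower probe sets, and the part of the other measures in the results was not tested.

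Of 878 probe sets tested, 69 were higher in the medial prefrontal cortex than the mean of the 5 other region means and 93 were lower (limma, adjusted p under 0.05 and at least 2-fold), which is 7.86% and 10.6% of those tested. Leading the higher genes were the alpha-1D adrenergic receptor Adra1d, the peptide cholecystokinin (Cck), the inositol kinase Itpka and the release protein syntaxin 1A (Stx1a). The lower genes were led by a probe set of the adhesion molecule Ncam1, oxytocin (Oxt), gamma-synuclein (Sncg), the myelin protein Mog and the dopamine receptor Drd2. Without a demand on fold, 183 probe sets (20.8%) passed the test upward and 238 (27.1%) downward. On 31 probe sets (3.53%) the 3 arrays all lay above the 18 others, and on 28 (3.19%) all lay below. Without array 3 there were 92 higher and 86 lower, so that the higher ones were then the more numerous, and 61 and 73 of them were among those called with it. Just inside the 2-fold limit were Kcnf1 (1.01) and a probe set of Itpr1 (1.00), and just outside it Nptx2 (0.99) and a probe set of Egr1 (0.99). On the lower side Serpine2 (-1.01) was inside and Lsamp (-0.97) outside.

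The amygdala was the region most like the medial prefrontal cortex and the ventral tegmental area the least. Over the 878 probe sets the correlation of the region's mean profile with the medial prefrontal cortex was 0.953 for the amygdala, 0.894 for the nucleus accumbens, 0.883 for the septum, 0.830 for the lateral hypothalamus and 0.783 for the ventral tegmental area, a description over probe sets of 1 array design. Set against the amygdala alone, 19 probe sets were higher (2.16%) and 45 lower (5.13%). Against the nucleus accumbens there were 58 higher (6.61%) and 82 lower (9.34%), against the septum 73 (8.31%) and 110 (12.5%), against the lateral hypothalamus 117 (13.3%) and 109 (12.4%), and against the ventral tegmental area 141 (16.1%) and 130 (14.8%). Without array 3 the count higher than the amygdala was 29. Of the 69 higher probe sets, 63 also passed against the lateral hypothalamus and 63 against the ventral tegmental area, but 8 against the amygdala. Of the 93 lower ones, 73 passed against the ventral tegmental area and 32 against the amygdala.

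The 4 markers proposed for the region differed in how far they set it apart. Cck encodes a peptide that cortical interneurons release and that pyramidal neurons also express. Its signal was 12.67, 12.80 and 12.66 on the 3 medial prefrontal cortex arrays, 11.54 to 11.83 in the ventral tegmental area, 10.76 to 11.34 in the amygdala, 8.67 to 9.05 in the septum, 8.29 to 8.73 in the lateral hypothalamus and 8.04 to 8.53 in the nucleus accumbens. All 3 arrays lay above every other array. The difference from the mean of 5 was 3.02 ± 0.12 (SE; 3 arrays against 18; limma, adjusted p = 7.1e-14), and that from the ventral tegmental area, next in level, 1.03 ± 0.16 (adjusted p = 1.48e-05). The nucleus accumbens, lateral hypothalamus and septum lay together at the low end.

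Adra1d, a receptor for noradrenaline that couples to calcium release, was 8.30, 8.57 and 8.41 in the medial prefrontal cortex. It was at the floor on all arrays of the nucleus accumbens, lateral hypothalamus, septum and ventral tegmental area and on 3 of 4 of the amygdala, where the fourth read 5.51. The groups did not overlap. The difference was 3.40 ± 0.15 (limma, adjusted p = 1.93e-13) and depends on the floor: with no floor it was 5.20. A second probe set for Adra1d, whose suffix marks possible cross-hybridisation, gave 0.82 ± 0.24 and did not reach 2-fold.

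Itpka, which phosphorylates inositol trisphosphate at dendritic spines, read 10.42, 10.65 and 10.71 in the medial prefrontal cortex. The nucleus accumbens (10.07 to 10.63) overlapped with it, as did the amygdala (10.08 to 10.45). The septum read 9.43 to 9.53, and the lateral hypothalamus and ventral tegmental area were at the floor on all 7 arrays. Its difference from the mean of 5, 2.59 ± 0.12 (limma, adjusted p = 2.19e-13), goes with 1.12 ± 0.15 from the septum and 5.59 from each region at the floor. It differed from the amygdala by 0.35 ± 0.14 (adjusted p = 0.0921) and from the nucleus accumbens by 0.33 ± 0.14 (adjusted p = 0.0827). Itpka was thus above the lateral hypothalamus, septum and ventral tegmental area at 2-fold, and not above the amygdala or nucleus accumbens.

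Stx1a, a membrane protein of the complex that fuses synaptic vesicles, read 11.36, 11.62 and 11.29. The amygdala was next with 10.54 to 10.92, and the 14 arrays of the other regions read 8.09 to 8.87. The 3 arrays lay above all 18. The difference from the mean of 5 was 2.53 ± 0.11 (limma, adjusted p = 1.16e-13), and that from the amygdala 0.74 ± 0.13 (adjusted p = 0.000477), which is under 2-fold. Its suffix too marks possible cross-hybridisation.

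**Figure D1:**
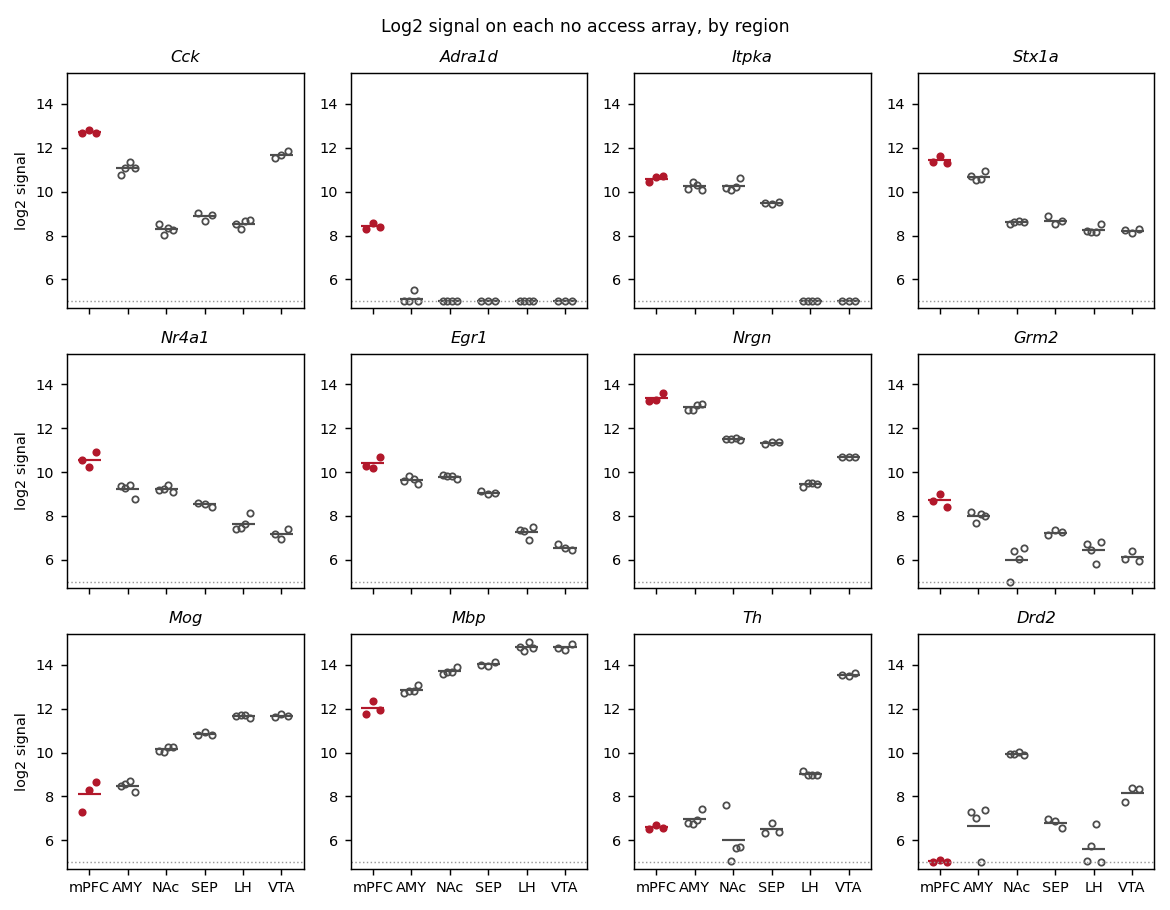
Log2 signal (vertical axes) of 12 genes on each of the 21 no access arrays, by region (mPFC, medial prefrontal cortex, filled; AMY, amygdala; NAc, nucleus accumbens; SEP, septum; LH, lateral hypothalamus; VTA, ventral tegmental area), with a bar at the region's mean and a dotted line at the floor of 5. Cck and Adra1d were higher in the mPFC than in every other region, Itpka overlapped with the AMY and NAc, and Mog was low in the mPFC and AMY.

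Against each of the 5 regions in turn, 4 probe sets were higher (0.456%) and 5 lower (0.569%). The higher ones stood for Adra1d, Cck, the nuclear receptor Nr4a1 and a probe set with no gene symbol. The lower ones stood for Ncam1, the neuronatin gene Nnat, the complement gene C4b, the glutamate transporter Slc1a2 and a probe set with no symbol. Without array 3 there were 8 higher and 11 lower, and without array 1 or 2 the lower ones were 13 and 15. Nr4a1, an activity-induced transcription factor, read 10.55, 10.22 and 10.91, above the 6.93 to 9.43 of all other arrays. Its differences from single regions lay between 1.33 ± 0.20 (nucleus accumbens) and 3.39 ± 0.21 (ventral tegmental area; limma, adjusted p = 2.28e-11). Its other probe set was also higher, by 1.71 ± 0.30. Nnat, an imprinted gene active in the developing brain, read 11.49, 11.48 and 10.77 against 12.43 to 13.63 elsewhere. Its difference from the mean of 5 was -1.62 ± 0.13 (limma, adjusted p = 2.07e-09), and without array 3 it was -1.39. C4b, which encodes complement component 4, read 6.46, 8.08 and 7.34 against 8.41 to 9.67 elsewhere, a difference of -1.76 ± 0.23. The Ncam1 probe set read 6.50, 5.46 and 5.00 (the floor) against 7.14 to 8.88 elsewhere, a difference of -2.73 ± 0.26 (adjusted p = 3.09e-08). Its suffix marks possible cross-hybridisation, and the other probe sets of Ncam1 gave -0.75 ± 0.14 and -0.36 ± 0.14, both under 2-fold. The Slc1a2 probe set read 7.19, 5.03 and 5.00 against 6.64 to 8.63, so that array 1 overlapped with the other regions, and a brighter Slc1a2 probe set differed by -0.95 ± 0.18.

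**Figure D2:**
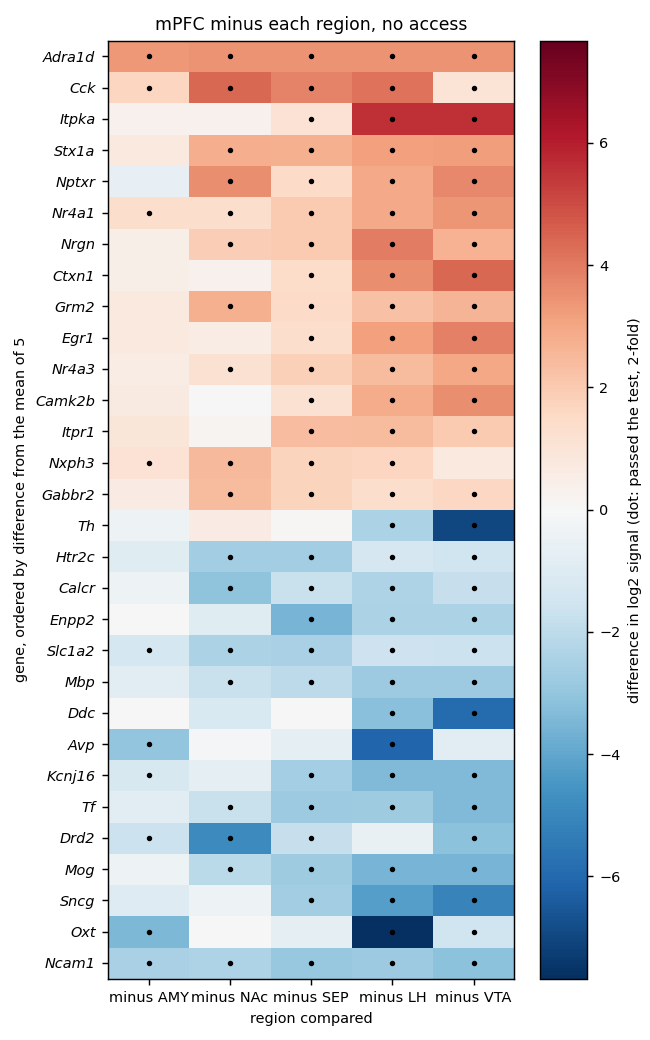
Difference in log2 signal between the medial prefrontal cortex (mPFC) and each other region without cocaine (columns; AMY, amygdala; NAc, nucleus accumbens; SEP, septum; LH, lateral hypothalamus; VTA, ventral tegmental area) for the 15 genes with the largest rises and the 15 with the largest falls, ordered by the difference from the mean of 5; a dot marks a difference past the test and 2-fold. On a colour scale set by the largest difference (-7.67, Oxt against the LH), Itpka is red against the LH and VTA (5.59 each) and pale against the AMY and NAc, and Th is dark blue against the VTA (-6.95).

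Promoter sequences are shown for 4 genes at the top of the higher list, of which Nr4a1 and Egr1 are activity-induced genes whose promoters are known for response elements, and Stx1a and Adra1d are markers. They come from RefSeq (GRCr8) and run from 250 bases before to 50 bases after the gene's start, in the gene's direction. Capitals mark matches to 8 motifs searched on both strands: TATAAA, TGACGTCA (the cyclic AMP response element, CRE), TGCGTCA (a CRE-like site), GCGTGGGCG (Egr1), AAAGGTCA (NBRE, bound by the Nr4a receptors), GGGCGG (GC box), CAGATG (an E-box) and the CArG box of serum response factor. TGCGTCA was added after the Nr4a1 sequence was seen. Nr4a1 lies on the plus strand at chr7:134259888-134260187 and holds TGCGTCA 4 times, starting 248, 228, 84 and 55 bases before the start, and 3 GC boxes. Egr1 lies on the plus strand at chr18:26736828-26737127 and holds CArG boxes starting 105 and 83 bases before the start. Stx1a lies on the minus strand at chr12:27306422-27306721 and holds 4 GC boxes and an E-box. Adra1d lies on the minus strand at chr3:139262282-139262581, and none of the motif letters occur in that window. Cck and Itpka have no entry.
Nr4a1: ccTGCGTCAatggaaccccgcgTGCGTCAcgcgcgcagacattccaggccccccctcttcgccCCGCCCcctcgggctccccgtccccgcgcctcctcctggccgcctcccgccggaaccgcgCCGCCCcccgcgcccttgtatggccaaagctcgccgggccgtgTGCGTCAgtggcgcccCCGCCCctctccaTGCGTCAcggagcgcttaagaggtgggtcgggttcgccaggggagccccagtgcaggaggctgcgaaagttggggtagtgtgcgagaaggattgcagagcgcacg
Egr1: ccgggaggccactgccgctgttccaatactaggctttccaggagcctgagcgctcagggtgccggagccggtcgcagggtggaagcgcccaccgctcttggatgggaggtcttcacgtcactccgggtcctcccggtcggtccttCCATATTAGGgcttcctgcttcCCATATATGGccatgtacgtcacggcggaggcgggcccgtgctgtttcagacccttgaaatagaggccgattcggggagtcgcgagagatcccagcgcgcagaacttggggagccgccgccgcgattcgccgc
Stx1a: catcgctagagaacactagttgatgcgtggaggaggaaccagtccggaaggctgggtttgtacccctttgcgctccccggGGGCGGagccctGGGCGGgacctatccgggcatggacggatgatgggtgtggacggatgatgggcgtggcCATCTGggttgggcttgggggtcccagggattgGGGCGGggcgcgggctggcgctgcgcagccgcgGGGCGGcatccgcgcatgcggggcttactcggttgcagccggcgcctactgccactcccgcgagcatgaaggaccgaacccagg
Adra1d: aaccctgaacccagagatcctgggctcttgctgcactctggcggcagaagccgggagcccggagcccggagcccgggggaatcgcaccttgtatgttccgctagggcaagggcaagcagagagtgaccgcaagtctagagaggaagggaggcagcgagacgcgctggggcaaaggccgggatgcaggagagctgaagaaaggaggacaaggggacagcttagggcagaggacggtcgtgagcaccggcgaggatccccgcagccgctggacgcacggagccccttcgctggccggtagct
A promoter was found for 31 of 44 higher genes, 46 of 64 lower genes and 411 of 533 genes tested (genes counted here by the probe set with the smallest p). A GC box was present in 64.5% of the higher genes' promoters, 45.7% of the lower genes', 56.4% of those tested and 34.9% of all 27457 promoters. TGCGTCA was present in Nr4a1 alone among the higher genes (3.23%) and in 2.92% of the genes tested, the CArG box in Egr1 alone among them (3.23%, against 0.973%), and CRE in Sst and Syn1 (6.45%, against 3.41%). A match is a description of the letters and not of binding.

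The genes were next taken by role, with 1 probe set a gene, the brightest. Of 533 genes 39 were higher (7.32%) and 54 lower (10.1%), and the median difference of all was -0.11. The list of the 4 markers had 3 higher on this count and a median of 2.56, with Adra1d not called on its second probe set. The 4 were proposed with earlier results of these data known, so their count is a description and no test. Of 12 genes tested that are induced by neuronal activity, 4 were higher (Egr1, Junb, Nr4a1, Nr4a3) and Jun was lower, with a median of 0.23 and 2 lower without array 2. The medians of the AMPA and kainate, GABA-A, monoamine and acetylcholine receptor lists and of the adhesion and cyclic AMP lists changed sign under another scaling, so no direction is given for them. Egr1, a zinc finger transcription factor, read 10.29, 10.18 and 10.71 on the probe set with the smallest p. The nucleus accumbens (9.67 to 9.89) and amygdala (9.46 to 9.83) came next, the septum read 8.99 to 9.15, and the lateral hypothalamus (6.90 to 7.50) and ventral tegmental area (6.43 to 6.70) were lowest. The difference from the mean of 5 was 1.93 ± 0.13 (limma, adjusted p = 1.18e-10), and the differences from the nucleus accumbens (0.60 ± 0.15) and amygdala (0.76 ± 0.15) were under 2-fold. The brightest Egr1 probe set gave 1.99 ± 0.14, while dimmer ones gave 0.99 ± 0.22 and 0.36 ± 0.16 and were not called. Nr4a3, a nuclear receptor of the Nr4a1 family, read 8.09, 7.82 and 8.66 and was higher by 1.78 ± 0.19, with an overlap with the amygdala (7.14 to 7.94). A dimmer Nr4a3 probe set gave 0.69 ± 0.37 and was not called. Junb was higher by 1.23 ± 0.26. Fos, the best known gene of the group, was 0.45 ± 0.10 above the mean of 5 and did not reach 2-fold. Jun read 5.27, 6.86 and 5.08 and differed by -1.50 ± 0.39.

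Of 21 genes of calcium and calmodulin signalling, 5 were higher (Camk2a, Itpka, Itpr1, Nrgn and Prkcb) and Pcp4 was lower, with a median of 0.58. Nrgn, which binds calmodulin in the dendrites of forebrain neurons, read 13.23, 13.29 and 13.60. The amygdala read 12.82 to 13.08, the nucleus accumbens and septum 11.27 to 11.54, the ventral tegmental area 10.67 to 10.70 and the lateral hypothalamus 9.34 to 9.52. No other array reached the lowest of the medial prefrontal cortex, and the difference of 2.18 ± 0.08 (limma, adjusted p = 2.63e-14) was 2.42 ± 0.11 on its other probe set. Itpr1, the receptor that releases calcium from stores, was higher by 1.59 ± 0.16 (10.89, 10.64 and 11.40), level with the nucleus accumbens (10.65 to 10.81). Dimmer Itpr1 probe sets gave 1.87 ± 0.27 and 1.00 ± 0.39, which were called, and 0.44 ± 0.34 and 0.56 ± 0.49, which were not. Camk2b, a subunit of calmodulin kinase II, was higher by 1.66 ± 0.14 on 1 probe set and by 0.63 ± 0.11 on a brighter one. On the dimmer one it read 11.57 to 11.69, within the range of the nucleus accumbens (11.35 to 11.87). Pcp4, a calmodulin-binding protein, read 9.87, 9.72 and 10.08, below the 10.72 to 12.45 of all other arrays, a difference of -1.64 ± 0.08 (adjusted p = 1.12e-12).

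Of 12 markers of cortical excitatory neurons, 4 were higher (Camk2a, Grm2, Nptxr and Nrgn), none were lower, and the median was 0.81. Without array 3, 6 of them were higher. The same list had a median difference of 0.03 from the amygdala and -0.16 from the nucleus accumbens, and none of its members passed against the amygdala at 2-fold. Its summed signal was 25476 to 32149 in the medial prefrontal cortex and overlapped with the amygdala (23449 to 30806), with 18152 to 20224 in the nucleus accumbens and 6490 to 6619 in the ventral tegmental area. In tissue RNA, more cells of a type and more RNA per cell cannot be told apart. Nptxr, a receptor for neuronal pentraxins at synapses, was higher than the mean of 5 by 2.21 ± 0.17 (11.72, 11.91 and 12.42). The amygdala was higher still (12.32 to 13.10), and the medial prefrontal cortex differed from it by -0.63 ± 0.21. Grm2, a metabotropic glutamate receptor that dampens release, read 8.66, 9.02 and 8.43 against 5.00 to 8.16 elsewhere, a difference of 1.95 ± 0.25 (limma, adjusted p = 2.3e-06). It was the 1 higher member of 5 metabotropic glutamate receptors tested.

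Of 27 potassium channel genes 4 were higher (Kcnf1, Kcnh1, Kcnh3 and Kcnj4) and Kcnj16 was lower, and without array 2 there were 2 of each. A dim probe set of the glial channel Kcnj10 was also lower (-1.56 ± 0.35), and its brighter one gave -0.81 ± 0.40. Kcnh3, a voltage-gated channel of forebrain neurons, was higher by 1.24 ± 0.14 (11.72, 11.28 and 11.21), next to the amygdala (11.14 to 11.37). Kcnj16, an inward rectifier found in glia, read 5.00, 5.00 and 5.43 against 5.70 to 8.82 elsewhere, a difference of -2.26 ± 0.22 (limma, adjusted p = 5.53e-08). Kcnf1 (1.01) lost the call without array 1 or array 2, and without any 1 of array 3 of the nucleus accumbens, arrays 3 and 4 of the amygdala and array 1 of the ventral tegmental area. Kcnh1 (1.09) lost it without array 2, and array 3 held the lowest value of the 3 for both. Kcnf1, Kcnh1 and Kcnj4 each lost the call without the lateral hypothalamus and without the ventral tegmental area. Their means in the nucleus accumbens were 8.55, 8.88 and 9.18, against 8.33, 8.86 and 8.66 in the medial prefrontal cortex. Of 16 sodium and calcium channel genes Cacna2d1, a calcium channel subunit, was higher by 1.11 ± 0.15, and 2 were higher without array 2. Of 9 GABA-A receptor subunits Gabrd, which forms receptors outside the synapse, was higher (1.18 ± 0.15 on the probe set with the smallest p), and Gabrg1 was lower (-1.05 ± 0.21), a call lost without array 3 (-0.83). On that probe set the mean of Gabrd was 8.85, below that of the nucleus accumbens (9.08), and the amygdala (8.43 to 8.79) overlapped. Its call was lost without the lateral hypothalamus and without the ventral tegmental area. Without array 2 none of the 9 were higher and 2 were lower. The GABA-B receptor subunit Gabbr2 read 11.66, 11.65 and 11.93 against 9.18 to 11.27 elsewhere and was higher by 1.54 ± 0.09 (adjusted p = 3.4e-11), while its dimmer probe sets gave 0.60 ± 0.27 and 0.89 ± 0.24. On the brightest probe sets no member passed at 2-fold (limma) among 7 AMPA and kainate receptor subunits, 6 NMDA receptor subunits and 11 acetylcholine receptors. The count of higher AMPA and kainate subunits was 1 without array 3, with array weights and with quantile normalization, and that of higher acetylcholine receptors was 1 without array 2, without array 3 and with array weights. A dimmer Grin1 probe set was higher by 1.29 ± 0.34 (8.97, 9.31 and 6.78), a call lost without array 1 or array 2, and the brighter one gave 0.11 ± 0.31. Of 17 monoamine receptors Drd2 and the serotonin receptor Htr2c were lower and none were higher on the brightest probe set, which for Adra1d was the one that did not reach 2-fold. Without array 2 or array 3, 1 monoamine receptor was higher, and without array 2, 3 were lower.

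Of 21 genes of synaptic vesicles and their fusion, Stx1a, Syn1 and Sncb were higher, Sncg and Sv2c were lower, and the median was 0.17. Syn1, which tethers vesicles, read 12.05, 12.31 and 11.10, the last being array 3, and was higher by 1.25 ± 0.23. Beta-synuclein (Sncb) read 10.14, 10.17 and 8.75, with array 3 inside the range of the other regions (7.85 to 9.42). Its difference was 1.03 ± 0.22, and the call was lost without array 1 or array 2. Sv2c lost its call (-1.49 ± 0.41) without array 2. Syn2, a relative of Syn1, was higher by 1.46 ± 0.11 on 1 probe set and by 0.62 ± 0.13 on that used for the count. Of 16 adhesion and guidance genes Cntn4 and Nptxr were higher and Cntn1 and Gja1 lower. Cntn4 (1.02 ± 0.31) lost the call without array 1 and without any 1 of array 3 of the nucleus accumbens, array 4 of the amygdala, array 2 of the lateral hypothalamus, array 3 of the septum and arrays 1 and 3 of the ventral tegmental area. It was 0.99 ± 0.31 (limma, adjusted p = 0.0148) with array number as a replicate block. Cntn1 read 9.72, 9.38 and 5.65, the last being array 3, and its difference of -1.52 ± 0.52 became -0.22 without that array, when none of the adhesion genes were lower. Nxph3, a secreted neurexin ligand outside the lists, was higher by 1.55 ± 0.23 (8.13, 8.24 and 7.24), and the cortexin gene Ctxn1 by 2.04 ± 0.15 (12.82, 12.59 and 12.89), which the nucleus accumbens (12.09 to 12.73) overlapped.

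Myelin genes were lower. All 6 oligodendrocyte genes tested (Cnp, Mag, Mbp, Mog, Sox10 and Tf) were lower, with a median of -1.69, and all 6 remained lower without each medial prefrontal cortex array in turn. Mog, a surface protein of myelin, read 7.29, 8.31 and 8.67. The amygdala read 8.19 to 8.69 and overlapped, the nucleus accumbens and septum 10.02 to 10.93, and the lateral hypothalamus and ventral tegmental area 11.58 to 11.76. The difference from the mean of 5 was -2.47 ± 0.17 (limma, adjusted p = 2.25e-10). Mbp, the basic protein of myelin, read 11.75, 12.36 and 11.94 against 12.72 to 15.03 elsewhere, a difference of -2.01 ± 0.11 (adjusted p = 6.31e-12). Transferrin (Tf), which oligodendrocytes make, read 8.81, 8.93 and 9.34 against 9.72 to 12.47 and was lower than the mean of 5 by a difference of -2.28 ± 0.09. The summed signal of the 6 genes was 6971 to 10012 in the medial prefrontal cortex, 13156 to 15701 in the amygdala, 23490 to 26777 in the nucleus accumbens and 49079 to 56641 in the ventral tegmental area, with no overlap between these. None of the 6 passed against the amygdala at 2-fold on the brightest probe set.

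Of 6 genes of dopamine neurons, 5 were lower (Ddc, Slc18a2, Slc6a3, Sncg and Th; median -1.74), and the ventral tegmental area held their highest levels among those described here. Another Ddc probe set gave -0.87 ± 0.19 and was not called. Th, which makes the dopamine precursor, read 6.53, 6.71 and 6.57. It was 13.47 to 13.65 in the ventral tegmental area, 8.96 to 9.16 in the lateral hypothalamus and 5.03 to 7.62 in the other 3 regions. The medial prefrontal cortex differed from the nucleus accumbens by 0.60 ± 0.37, from the amygdala by -0.36 ± 0.37 and from the septum by 0.10 ± 0.40, none of which passed (limma, adjusted p 0.222 to 0.865). The vesicular monoamine transporter Slc18a2 was at the floor on all 3 arrays. Sncg read 5.00, 5.00 and 5.29 against 9.18 to 10.41 in the lateral hypothalamus and ventral tegmental area, 7.60 to 7.88 in the septum and 5.00 to 7.22 in the amygdala and nucleus accumbens. Without the ventral tegmental area Th and Slc18a2 lost their calls.

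Genes of striatal neurons differed most from the nucleus accumbens. Of 11 tested, 5 were lower (Drd2, Oprk1, Penk, Rarb and Tac1; 3 without array 2), with a median of -0.90 against the mean of 5 and -3.23 against the nucleus accumbens. Drd2, the receptor of indirect-pathway neurons, read 5.00, 5.12 and 5.00. It was 9.91 to 10.01 in the nucleus accumbens, 7.77 to 8.39 in the ventral tegmental area, and 5.00 to 7.36 in the amygdala, septum and lateral hypothalamus, a difference of -2.40 ± 0.36 (limma, adjusted p = 1.87e-05). Penk, the enkephalin precursor, read 8.95, 8.40 and 9.22 against 11.90 to 12.22 in the nucleus accumbens and 7.71 to 8.09 in the ventral tegmental area, the 1 region below it. Its difference from the mean of 5 was -1.16 ± 0.14, a call lost without array 2, without the nucleus accumbens and without the amygdala. A dimmer probe set of Tac1, the substance P precursor, was lower (-1.11) and lost its call without array 1 and without the nucleus accumbens. The brighter Tac1 probe set, used for the count, gave -1.14 ± 0.24. The dopamine receptor Drd1 was at the floor on all 3 arrays on a dim probe set (-1.28 ± 0.20), and its brighter probe set gave -0.21 ± 0.20. The summed signal of the 11 genes was 1664 to 3387 against 16186 to 18310 in the nucleus accumbens.

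Of 6 hypothalamic peptide and related genes, 3 were lower (Avp, Nnat and Oxt; median -1.28). Oxt, the oxytocin precursor, read 5.00, 5.44 and 6.02 against 13.07 to 13.25 in the lateral hypothalamus. It was 6.90 to 10.35 in the amygdala and 5.00 to 7.28 in the other 3 regions, and the difference from the mean of 5 was -2.69 ± 0.43 (limma, adjusted p = 3.2e-05). It passed against the lateral hypothalamus (-7.67 ± 0.52), the amygdala (-3.45 ± 0.52) and the ventral tegmental area (-1.51 ± 0.56). Vasopressin (Avp) differed from the lateral hypothalamus by -6.11 ± 0.43 and from the amygdala by -3.04 ± 0.43. Neither passed against the nucleus accumbens (-0.06 ± 0.52 and -0.09 ± 0.43; limma, adjusted p 0.952 and 0.902) or the septum.

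Markers of glia, vessels and choroid plexus were also lower or not called. All 4 choroid plexus genes were lower (Enpp2, Htr2c, Igf2 and Igfbp2; median -1.60), 3 of 4 microglial and complement genes (C3, C4b and Il18; median -1.11), 2 of 8 astrocyte genes (Gja1 and Vim; median -0.67; 1 without array 3) and Pdgfrb of 3 vessel genes (median -0.75). No member of these 4 lists was higher. The brightest Igf2 probe set gave -1.48 ± 0.30, while dimmer ones at -0.24 ± 0.19 and -0.37 ± 0.29 were not called. Another Il18 probe set gave -0.87 ± 0.27 and was not called. Enpp2, an enzyme that choroid plexus secretes and oligodendrocytes make, read 8.24, 8.44 and 9.20. The amygdala (8.50 to 8.75) overlapped and the septum was highest (11.97 to 12.31), a difference from the mean of 5 of -1.87 ± 0.13 (limma, adjusted p = 2.81e-10). Htr2c read 5.59, 5.00 and 5.08, below the 5.81 to 8.03 of all other arrays. The summed choroid plexus signal was 1019 to 1876 against 11817 to 12858 in the septum and 2074 to 6055 in the nucleus accumbens, amygdala, lateral hypothalamus and ventral tegmental area. Its part in other differences from the septum was not tested. Gja1, the astrocytic gap junction protein, read 9.64, 9.79 and 6.61, the last being array 3. Its difference of -1.78 ± 0.38 was -0.74 without that array and no longer 2-fold, and Pdgfrb lost its call without array 3 (-0.96) and without array 2, and Vim lost its call without array 1. Of the 4 microglial genes, 2 were lower without array 1, 1 without array 2, where Il18 lost its call, and all 4 without array 3. The summed microglial signal ran from 1015 to 3070 over the 3 arrays and from 1840 to 4396 elsewhere.

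Of 7 interneuron genes somatostatin (Sst) was higher and the GABA transporter of vesicles (Slc32a1) and Tac1 were lower, and 1 was lower without array 2. Sst read 12.59, 12.52 and 13.22, level with the nucleus accumbens (12.55 to 12.80), and its difference of 1.08 ± 0.12 was 0.86 without array 3, under 2-fold. A dimmer Sst probe set gave 0.88 ± 0.14 and was not called. Slc32a1 read 10.71, 10.48 and 10.83, below the 11.03 to 12.65 of all other arrays, a difference of -1.17 ± 0.09 (limma, adjusted p = 2.06e-09). This call was lost without the septum, and a dimmer Slc32a1 probe set gave -0.84 ± 0.22, under 2-fold. Gad1, which makes GABA, differed from the mean of 5 by 0.01 ± 0.15. Of 27 neurotrophic factors and receptors Igf2, Igfbp2 and Tgfb1 were lower, and Igf2 and Igfbp2 are choroid plexus genes too. Tgfb1 was at the floor on all 3 arrays, on all 3 of the ventral tegmental area and on 3 of 4 of the lateral hypothalamus. Its call was lost without the amygdala, without the septum and with the actin ratio as a covariate. The receptor Fgfr1 was lower on 1 probe set (-1.38 ± 0.15), and the brighter one, at -0.61 ± 0.14, did not reach 2-fold. A dimmer probe set of Bdnf, the brain-derived neurotrophic factor, was higher by 1.04 ± 0.21, a call lost without array 2 and without array 1 of the septum, and the brightest one differed by -0.35 ± 0.25. Of 10 cytoskeletal genes the heavy neurofilament gene Nefh was lower by a difference of -1.19 ± 0.12 (8.50, 8.53 and 9.27), level with the amygdala (8.49 to 8.76) and nucleus accumbens (8.41 to 8.52). Without array 3, 1 cytoskeletal gene was higher and 2 were lower. A probe set of Map1a, a microtubule protein, was at the floor on all 3 arrays (-1.25 ± 0.31), and the brighter one differed by -0.01 ± 0.10. None of 9 genes of cyclic AMP and G protein signalling and none of 2 septal cholinergic genes passed at 2-fold on the brightest probe set. A dimmer probe set of the G protein subunit Gnb1 was lower (-1.06 ± 0.23), a call lost without array 3 (-0.69), and the brightest one gave -0.15 ± 0.17.

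**Figure D3:**
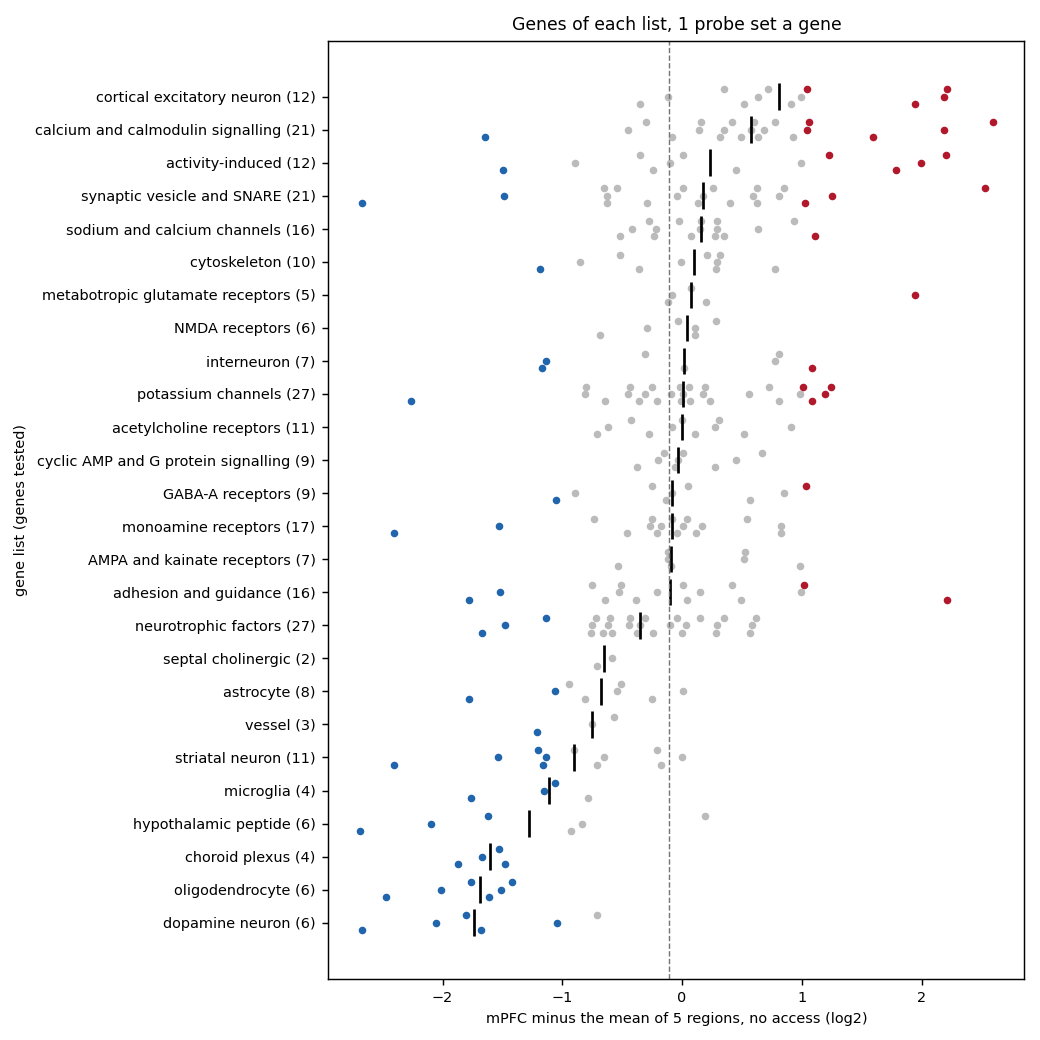
Difference between the medial prefrontal cortex (mPFC) and the mean of the 5 other regions without cocaine (log2, horizontal axis) for each tested gene of 26 lists, with the list's median as a black bar, higher genes in red, lower genes in blue, others in grey, and a dashed line at the median of all 533 genes (-0.11). Oligodendrocyte, choroid plexus and dopamine neuron genes lie to the left, and genes of cortical excitatory neurons and calcium signalling lie to the right.

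The comparison was repeated in the 42 arrays of cocaine access, which the choice of arrays had not used. In short access 60 probe sets were higher (6.83%) and 85 lower (9.68%), and in long access 71 (8.09%) and 115 (13.1%). Of the 69 higher without cocaine, 51 were called in short access (73.9%, and 85% of the short access list) and 54 in long access (78.3%, and 76.1% of the long access list). Of the 93 lower, 66 were called in short access (71% and 77.6%) and 71 in long access (76.3% and 61.7%). In no access and both cocaine groups alike, 48 probe sets were higher and 58 lower. None was called in the opposite direction. With array 3 of the medial prefrontal cortex left out of every access group, 70 of 88 higher (79.5%) and 58 of 86 lower (67.4%) were called in short access, and 60 of 88 higher (68.2%) and 59 of 86 lower (68.6%) in long access. The differences correlated at 0.921 with short access and 0.911 with long access over 878 probe sets, which are not independent of each other.

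Cck was higher than the mean of 5 by 3.25 in short access and 3.84 in long access. Its level in the medial prefrontal cortex was 12.74, 12.50 and 12.60 in short access and 12.80, 12.73 and 12.75 in long access, beside 12.67, 12.80 and 12.66 without cocaine. Adra1d was higher by 3.11 and 3.17, Itpka by 2.64 and 2.72, and Stx1a by 2.54 and 2.52. Mog differed by -2.50 and -2.56, and Mbp by -2.13 and -2.17.

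No probe set showed a difference of the region that depended on access, by a test of that difference in all 63 arrays (limma, adjusted p under 0.05; 0 of 878). At an unadjusted p under 0.05 there were 45 (5.13%), and 1 passed with array weights and 1 without array 2 of long access. The smallest p was that of a probe set of the cytokine Il3, marked for possible cross-hybridisation, whose difference from the mean of 5 was 0.76 without cocaine, -0.81 in short and -0.06 in long access (adjusted p = 0.277). The nicotinic subunit Chrna5 followed, with 0.27, 0.80 and 0.91 (adjusted p = 0.871), and P2rx6, an ATP-gated channel, with -0.74, -1.60 and -1.65. Htr6, Arrb2, Or10al6 and Kcnh2 went, as values with no call, from 0.17, -0.19, 0.55 and -0.41 without cocaine to -0.59, -0.90, -0.03 and -1.32 in long access. Sv2c was at -1.49 without cocaine, -0.30 in short and -0.59 in long access. None of these 8 passed.

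**Figure D4:**
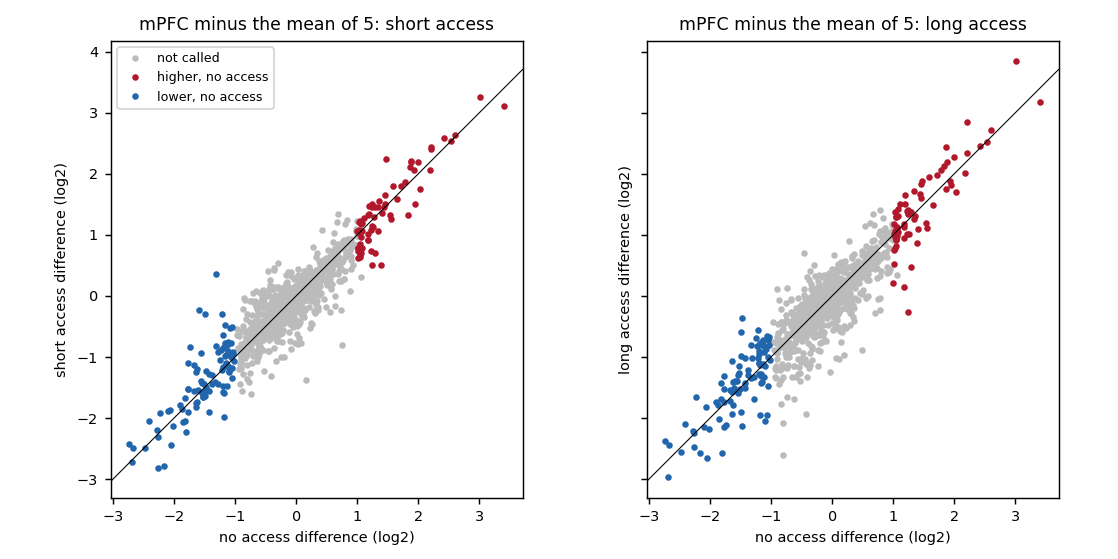
Difference between the medial prefrontal cortex and the mean of the 5 other regions (log2) in short access (left) and long access (right) against the same difference without cocaine, for 878 probe sets, with those called higher (69, red) and lower (93, blue) without cocaine; the line marks equal values. Points follow the line, and Cck lies above it in long access (3.84 against 3.02).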

How the data were processed

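Gene expression was measured on 63 Affymetrix Rat Neurobiology U34 arrays, of which 21 came from rats without cocaine. The deposited values are signal intensities on a linear scale, made by the authors with MAS5, per the submitters' processing notes; its version and detection calls are not given in the sources used here. Arrays have no depth, and their number limits the precision. The number of identical arrays was 0. The 59 control probe sets of 1322 were left out. Of the other 1263, 1137 had 1 gene symbol in the platform annotation, 8 had several and 118 none, and 1132 were found in RefSeq by Entrez identifier with 0 symbols changed. The suffix of 565 marks possible cross-hybridisation.

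Signals were scaled so that the 2% trimmed mean of every array became 500, floored at 32 and put on the log2 scale. Probe sets entered the test where the mean log2 signal of at least 1 region without cocaine was at least that of 100. limma 3.58.1 in R 4.3.3 (lmFit, contrasts.fit, eBayes with an intensity trend) fitted 6 regions, and p-values were adjusted by Benjamini-Hochberg within a contrast, over 878 probe sets. A call needed an adjusted p under 0.05 and at least 2-fold. Errors are SE of the fit. The short and long access arrays were fitted separately, and the dependence on access in 1 fit of 63 arrays in 18 groups. The floor of 32 can make the differences of dim probe sets smaller.

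The members, the 27 lists, the markers and the named genes were chosen with earlier results of these data known. Named genes are the 15 largest rises and falls by the probe set with the smallest p, the 4 markers, up to 4 called members of each list in each direction, genes called against all 5 regions, and the 8 with the smallest p for access; genes that were not called, and Gad1 and Fos, were added after their values were seen. Same-numbered arrays of the amygdala deviated together with those of the medial prefrontal cortex (correlations of 0.29, 0.19 and 0.47), while over all 5 regions 6 of 15 pairs exceeded 0.1. Pairs with different numbers in the amygdala ran from -0.42 to 0.30. Array 3 of the amygdala also had the highest actin ratio of the other regions (0.62), and its part in the 0.47 was not tested. Alternatives were other scalings, floors, filters and thresholds, array weights, a replicate block, regions or arrays left out, and, added after the data were seen, the actin ratio as a covariate, the lists under each setting, and array 3 left out in every access group. The fit was tested on simulated data.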

Additional observations from a re-analysis of the deposited data

Results flagged for a closer look

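Among 231 groups of 4 arrays for the 77 named genes, 14 held an array far from the other 3 (6.06%). Chance alone gives about 1 in 20 for normally spread values, a rate that the floor breaks. A group with 3 arrays at the floor and 1 above it is always flagged (Adra1d, Drd1, Slc18a2 and Tgfb1 below), and 1 with all 4 there never is. None of the 14 lay in the medial prefrontal cortex, whose groups of 3 were not tested, so each touches only the level it was compared with. In the amygdala, array 3 stood apart for Adra1d (5.51, with the others at the floor of 5), Drd2 (5, against 7.03 to 7.36) and Gnb1 (10.11, against 9.26 to 9.30), and array 4 for Calcr (6.44, against 5 to 5.06). In the lateral hypothalamus, array 2 stood apart for Drd1 (6.12), Nefh (10.59), Or10al6 (6) and Tgfb1 (6.07), array 4 for Kcnf1 (6.66), Nxph3 (6.65) and Stx1a (8.51), and array 1 for Ddc (9.59). In the nucleus accumbens, array 3 stood apart for Nr4a3 (6.87) and array 4 for Slc18a2 (5.43). All are log2 signals.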

How the results depend on the processing

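None of the 70 named genes that were called changed sign under the alternatives run. The lower probe sets outnumbered the higher ones against the mean of 5 except without array 3 of the medial prefrontal cortex (92 higher and 86 lower) and with the actin ratio as a covariate (87 and 82). Of the 70, 38 kept their call under every alternative they could be fitted in, and 53 under every left-out array. All 4 markers kept theirs, with differences of 2.67 to 3.51 for Cck, 2.36 to 5.20 for Adra1d, 1.85 to 3.16 for Itpka and 2.36 to 2.98 for Stx1a. With the replicate block the counts against the mean of 5 were 65 higher and 89 lower, against the amygdala 17 and 39, and 0 depended on access; of the named genes' calls it changed only that of Cntn4.

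With values as deposited, 12 were higher and 28 lower than the amygdala and 76 were lower in long access (657 probe sets passed the filter). With no floor 11 were lower than all 5 regions. With a mean over 6 regions of at least 100, 9 were higher than the amygdala and 2 than all 5. Array weights gave 9 lower than all 5 and 1 dependent on access. A 3-fold threshold gave 20 and 33, no fold threshold 183 and 238. Without the ventral tegmental area 45 were higher. Without probe sets marked for cross-hybridisation 473 were left, with 37 higher and 47 lower than the mean of 5, 32 and 42 than the nucleus accumbens, 12 and 21 than the amygdala, 62 and 55 than the lateral hypothalamus, 38 and 58 than the septum, 75 and 68 than the ventral tegmental area, 2 lower than all 5, 33 and 44 in short access and 41 and 59 in long access. Leaving out each array gave 62 to 92 higher and 86 to 101 lower than the mean of 5, 15 to 29 higher and 39 to 54 lower than the amygdala, 3 to 8 higher and 5 to 15 lower than all 5, and 0 to 1 dependent on access. Beyond fewer probe sets or arrays, the cause was not tested. Detection calls were not used here, and dim probe sets near the floor limit the differences.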
